A study of Mus musculus with 12 samples.

Results

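Hox genes encode homeodomain transcription factors that give cells their position along the head-to-tail axis, and 39 of them were among the 55487 genes measured in cultured mouse vascular smooth muscle cells. Members were the protein-coding genes whose symbol is Hox followed by a cluster letter and a paralog number. Of the 39, 11 lie in the Hoxa cluster, 10 in Hoxb, 9 in Hoxc and 9 in Hoxd. RNA was sequenced from primary vascular smooth muscle cells (VSMC) at passages 4 to 6, isolated from wild-type (WT) mice or from mice labelled knockout for Tigar, a fructose-2,6-bisphosphatase that lowers glycolytic flux, all aged 4 to 6 weeks. Cells were left untreated or given 40 µg/L of PDGF-BB, a growth factor that moves smooth muscle cells towards division and migration, for 6 h. The 4 groups (WT untreated, WT with PDGF-BB, labelled knockout untreated, labelled knockout with PDGF-BB) held 3 libraries each, and the vessel that the cells came from, the knockout allele and its exons are not given in the sources used here. The labels do not say whether libraries of a group are from different mice or cultures, and a p-value here weighs only sample-to-sample spread, which may be technical.

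As background, each Hox cluster is a row of genes in the order in which they act along the body: low paralog numbers are read first and towards the head, high numbers later and towards the tail, and cultured smooth muscle cells and fibroblasts are known to keep much of the Hox code of the site they came from. Polycomb complexes hold the genes silent outside their territory, Trithorax complexes and retinoic acid receptors open them, and Hox proteins bind DNA together with cofactors of the TALE homeodomain class (Pbx, Meis). In the arterial tree, cells of the cranial neural crest in the proximal arch carry few Hox transcripts, and more caudal vessels carry more posterior ones. A comparison of clusters and paralog numbers between the cultures therefore asks whether their Hox codes point to the same axial level. Paralogs 1 to 3 are called anterior here, 4 to 8 central and 9 to 13 posterior.

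The clusters occupy, on build GRCm38 as the deposited table gives it, chr11:96194316-96368256 (Hoxb), chr15:102921103-103036852 (Hoxc) and chr2:74668310-74765142 (Hoxd), with Hoxa on chromosome 6. For 22 of the 39 members the RefSeq table of promoters (GRCm38.p6) held an entry, and 4 are printed because each stands for a pattern of expression described below: Hoxa5 had the largest difference between genotype labels on the log2(CPM + 1) scale, Hoxa7 fell most with PDGF-BB, Hoxa10 was higher in the labelled knockout, and Hoxb8 was lower. Each line is the 250 bases before the RefSeq start, 5′ to 3′ on the strand of the gene, with matches to the searched motifs in capitals.
Hoxa5: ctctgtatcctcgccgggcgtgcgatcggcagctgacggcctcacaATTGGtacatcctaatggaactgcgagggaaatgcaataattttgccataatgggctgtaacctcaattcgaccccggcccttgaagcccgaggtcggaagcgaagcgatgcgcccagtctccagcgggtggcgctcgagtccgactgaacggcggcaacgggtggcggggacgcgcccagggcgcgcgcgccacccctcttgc
Hoxa7: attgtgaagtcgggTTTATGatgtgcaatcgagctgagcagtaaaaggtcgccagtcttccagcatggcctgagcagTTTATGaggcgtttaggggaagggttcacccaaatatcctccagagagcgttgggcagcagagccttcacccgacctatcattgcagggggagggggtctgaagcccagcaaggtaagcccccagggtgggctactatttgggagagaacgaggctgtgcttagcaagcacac
Hoxa10: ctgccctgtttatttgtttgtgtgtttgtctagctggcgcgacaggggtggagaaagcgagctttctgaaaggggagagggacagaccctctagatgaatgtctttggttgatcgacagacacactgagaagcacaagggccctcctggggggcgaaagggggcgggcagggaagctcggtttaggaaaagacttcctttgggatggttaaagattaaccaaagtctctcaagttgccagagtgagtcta
Hoxb8: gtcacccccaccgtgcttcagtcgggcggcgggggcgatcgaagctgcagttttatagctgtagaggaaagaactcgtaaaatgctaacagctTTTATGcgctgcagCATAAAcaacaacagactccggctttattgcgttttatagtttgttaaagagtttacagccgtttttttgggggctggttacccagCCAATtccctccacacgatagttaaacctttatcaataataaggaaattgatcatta

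The Hoxa5 stretch is chr6:52204588-52204837 (minus strand), that of Hoxa7 chr6:52218574-52218823 (minus), that of Hoxa10 chr6:52240855-52241104 (minus) and that of Hoxb8 chr11:96281655-96281904 (plus). The RefSeq start of Hoxa7 lies 3281 bases inside the gene start that the table uses, so its printed stretch precedes an internal start, while those of Hoxa5, Hoxa10 and Hoxb8 lie at the table's gene start. Motifs were searched on both strands: CCAAT (the CCAAT box), AGGTCA (a core motif of retinoid receptors), TTTATG (a Cdx site) and TGATTNAT (a Hox and Pbx site). Hoxa5 held 1 CCAAT box, Hoxa7 held 2 TTTATG matches, Hoxb8 held 1 CCAAT box and 2 TTTATG matches, and Hoxa10 held none of the 4. Among all 32851 upstream stretches of the same length, 33.8% held CCAAT, 14.0% AGGTCA, 10.8% TTTATG and 2.82% TGATTNAT, and among the 22 of Hox genes 13, 6, 5 and 1 did. A match is a description of letters and was not tested for binding.

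Levels are in CPM, in which the genes of a library add up to 1000000 and from which whole reads were recovered, with library totals of 14953807 to 21698488 reads, so that 1 read is worth at most 0.0669 CPM and 3 reads at most 0.201 CPM. The library that stood apart was WT with PDGF-BB replicate 1, whose root mean square log2 distance from the other 2 of its group was 0.416 against 0.143 to 0.293 in the other 11, and member calls that turn on it are given with and without it. Across genes its deviation from those 2 had a rank correlation with exon length of -0.58. For replicates 2 and 3, each set against the rest of the group, it was 0.43 and 0.53. In the other groups it ran from -0.25 to 0.17. The sums and shares below were not corrected for this. Tigar itself (chr6:127085116-127109557) checks the labels: it stood at 6.99, 8.61 and 6.91 CPM in WT untreated libraries, 11.5, 11.5 and 12.6 in WT with PDGF-BB, 10.0, 12.2 and 11.3 in labelled knockout untreated and 14.6, 14.7 and 16.2 in labelled knockout with PDGF-BB. The targeted gene was therefore not lower but higher in the libraries labelled knockout (log2 difference 0.52 ± 0.11 SE untreated, limma adjusted p = 0.00209), and, as the deleted part of the gene is not given, that level may or may not come from an intact transcript. The genotype is written as a label throughout. Of 10 measured smooth muscle markers that passed the filter, 4 were higher in the labelled knockout untreated and 9 with PDGF-BB, none lower. Over all genes tested 9.15% and 10.6% were called higher. All 12 markers summed to 4348 to 4949 CPM in WT untreated and 4287 to 6036 in labelled knockout untreated libraries, and to 2874 to 3217 and 5058 to 5200 with PDGF-BB, with Pln at 0 in all 4 groups.

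All 39 members were in the table, and 21 passed the filter of at least 1 CPM in at least 3 of the 12 libraries: 9 Hoxa, 8 Hoxb, 4 Hoxd and none of the Hoxc genes. By class these were 6 of 8 anterior, 11 of 15 central and 4 of 16 posterior members. The other 18 stayed below 1 CPM in every library, with 0.378 CPM (Hoxc6) as the highest value. Among these, Hoxc11, Hoxc12, Hoxd10, Hoxd11 and Hoxd12 had no read in any library. The 9 Hoxc genes together gave 2 to 13 reads per library and 82 reads in all. Hoxa11 had 2 reads in the 6 WT libraries (100115954 reads in all) and 13 in the 6 labelled knockout libraries (106485008 reads), and Hoxa13 had 0 and 7, counts too low for a comparison. At least 1 CPM in all 3 libraries of a group was reached by 19 members in WT untreated, 16 in WT with PDGF-BB, 19 in labelled knockout untreated and 15 in labelled knockout with PDGF-BB. Both genotypes thus held mostly anterior and central genes of Hoxa, Hoxb and Hoxd, with Hoxc genes and paralogs above 10 at or near 0 reads. Posterior genes of paralog 9 were present too: Hoxb9 reached 1 CPM in all 12 libraries and Hoxd9 in all 6 WT libraries.

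Levels between genes are compared per kb of exon. In WT untreated libraries the highest member was Hoxa5, at a mean of 27.4 CPM per kb, followed by Hoxa3 at 15.1, Hoxb4 at 15.1, Hoxb6 at 11.6 and Hoxb3 at 9.43. In labelled knockout untreated libraries Hoxa5 (10.6), Hoxa3 (10.5) and Hoxb4 (10.1) stood at nearly one level. Exon lengths are those of the table, and where GENCODE M21 gives more exon bases the level per kb is lower: Hoxa3 in WT untreated falls to 6.52 CPM per kb, and Hoxa9 from 0.914 to 0.111.

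**Figure D1:**
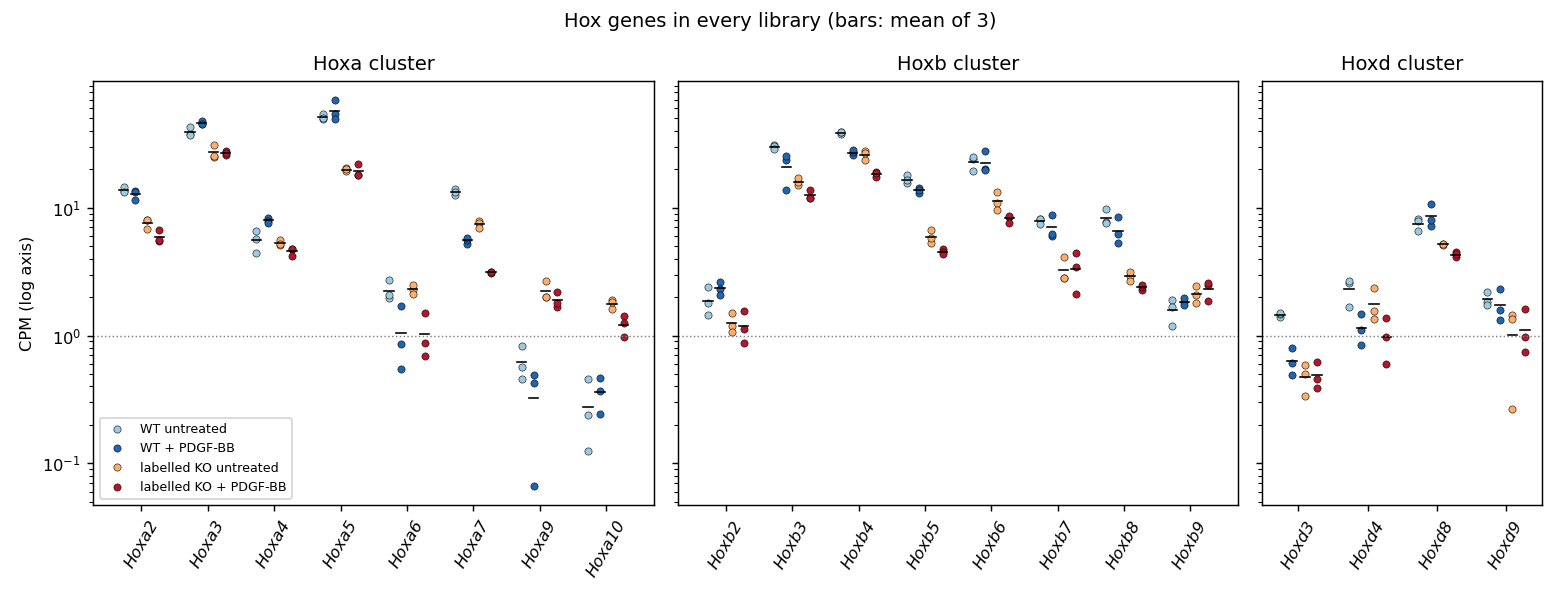
CPM on a log axis for 20 of the Hox genes that passed the filter, 1 point per library, coloured by group, with a bar at the mean of 3 libraries and a dotted line at 1 CPM. Most Hoxa and Hoxb genes up to paralog 8 sit lower in the labelled knockout libraries, while Hoxa9 and Hoxa10 sit at 0.0665 to 0.834 CPM in WT and 0.968 to 2.68 CPM in labelled knockout libraries.

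The first comparison was between genotype labels. In untreated cells 12 of the 21 tested members were lower in the labelled knockout and 2 were higher, Hoxa9 and Hoxa10, with 7 not called (limma on log2(CPM + 1), Benjamini-Hochberg adjusted p under 0.05). Over all 14202 genes tested 24.8% were called lower and 9.15% higher in the same contrast. With PDGF-BB 13 members were lower and 2 higher, against 26.6% and 10.6% of all genes. Lower in both treatments were 11 members, against 13.9% of all genes, and higher in both were the same 2, Hoxa9 and Hoxa10, against 6.39%. The median difference of the 21 was -0.56 on the log2 scale in untreated cells and -0.65 with PDGF-BB, while the medians of all genes were -0.13 and -0.14. With TMM scaling, which brings the all-gene medians to 0.02 and -0.01, the members' medians were -0.40 and -0.53, and all members called lower kept a negative sign. Hoxa9 and Hoxa10 reached 1 CPM in labelled knockout libraries only and Hoxd3 in WT untreated libraries only, so these 3 passed the filter through the group where they were high and had to differ. Without them 11 of 18 members were lower untreated and 13 of 18 with PDGF-BB, with none higher, and the medians were -0.57 and -0.68. The contrasts share no libraries, but both treatments were applied to cells of the same 2 labels.

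The anterior members, paralogs 1 to 3, pattern the hindbrain, the pharyngeal arches and the great vessels. Hoxa2, which specifies the second pharyngeal arch, stood at 13.5, 14.5 and 13.3 CPM in WT untreated, 13.5, 13.3 and 11.4 in WT with PDGF-BB, 8.05, 7.96 and 6.84 in labelled knockout untreated and 6.64, 5.50 and 5.62 in labelled knockout with PDGF-BB. All 6 WT libraries were above all 6 labelled knockout libraries, and the log2 difference was -0.78 ± 0.11 (SE) untreated and -0.99 ± 0.11 with PDGF-BB (limma adjusted p = 9.45e-05 and 1.14e-05). Hoxa3, needed for the third arch and the carotid artery that forms in it, stood at 37.7, 37.1 and 42.8 CPM in WT untreated and 45.3, 48.1 and 45.5 in WT with PDGF-BB. Its labelled knockout libraries held 30.8, 25.0 and 25.5 CPM untreated and 27.6, 25.8 and 26.7 with PDGF-BB. These are again below every WT library, and the log2 differences were -0.52 ± 0.09 and -0.77 ± 0.09. Of the Hoxa3 exon bases, 25.4% lie opposite exons of antisense genes. No strand setting of the counting is given, so whether reads there were included or left out is not known.

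Hoxb3, the Hoxb paralog of Hoxa3, held 30.7, 30.6 and 29.0 CPM in WT untreated and 14.9, 15.9 and 17.2 in labelled knockout untreated libraries. With PDGF-BB it held 13.8, 23.5 and 25.5 CPM in WT and 11.98, 13.8 and 11.9 in labelled knockout libraries. The groups were apart in untreated cells (-0.87 ± 0.17). With PDGF-BB the difference was -0.65 ± 0.17, and -0.91 without the WT library that stood apart, whose 13.8 CPM nearly met the highest labelled knockout library. This call was lost with quantile normalization (-0.48, adjusted p = 0.0645) and with only the compared groups in the fit (adjusted p = 0.0612). In Hoxb3, 52.9% of exon bases lie opposite Hoxb3os, an antisense transcript. Hoxd3 was at 1.39, 1.48 and 1.49 CPM in WT untreated, and below 1 CPM in the other 9 libraries: 0.607, 0.798 and 0.490 in WT with PDGF-BB, 0.589, 0.334 and 0.5005 in labelled knockout untreated, and 0.461, 0.389 and 0.625 in labelled knockout with PDGF-BB. Having passed the filter only through WT untreated cells, it was called lower in untreated labelled knockout cells (-0.74 ± 0.13, adjusted p = 0.000786 with no filter), a call that its selection favours, and not with PDGF-BB (-0.13 ± 0.13). It shares 62.3% of its exon bases with genes on its own strand, Hoxd4 among them. Hoxb2 held 1.45 to 2.61 CPM in WT and 0.875 to 1.57 in labelled knockout libraries and was called lower with PDGF-BB (-0.62 ± 0.16).

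Central members, paralogs 4 to 8, are the genes of the neck and chest. On the log2(CPM + 1) scale the largest difference of any member was in Hoxa5 with PDGF-BB, while by ratio of means other members differed more, among them Hoxa9, Hoxa10 and Hoxb5. Hoxa5 patterns the lower neck, lung and diaphragm and is known in endothelium as a brake on angiogenesis. It stood at 49.7, 53.9 and 50.8 CPM in WT untreated, 69.2, 54.0 and 49.4 in WT with PDGF-BB, 20.4, 19.2 and 20.0 in labelled knockout untreated and 18.1, 22.1 and 17.9 in labelled knockout with PDGF-BB. Every labelled knockout library was below every WT library, and the labelled knockout mean was 0.386 of WT untreated and 0.336 with PDGF-BB (log2 -1.33 ± 0.11 and -1.52 ± 0.11, adjusted p = 1.36e-06 and 3.84e-07). Hoxb5, its paralog, held 15.5, 17.9 and 16.3 CPM in WT untreated, 14.3, 13.03 and 13.7 in WT with PDGF-BB, 5.30, 5.82 and 6.73 in labelled knockout untreated and 4.79, 4.52 and 4.31 in labelled knockout with PDGF-BB. Its ratios of means, 0.359 and 0.332, were close to those of Hoxa5.

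Along the rest of the Hoxb cluster the same direction held up to paralog 8. Hoxb4 held 37.9, 38.8 and 39.3 CPM in WT untreated, 25.7, 27.2 and 28.1 in WT with PDGF-BB, 27.6, 23.8 and 26.6 in labelled knockout untreated and 19.0, 17.4 and 18.7 in labelled knockout with PDGF-BB. Within each treatment the labels did not overlap, but WT with PDGF-BB and labelled knockout untreated overlapped. Hoxb6 held 19.5, 23.9 and 25.0 CPM in WT untreated and 27.6, 20.0 and 19.7 in WT with PDGF-BB, against 13.3, 10.97 and 9.68 and 8.53, 8.56 and 7.62 in the corresponding labelled knockout groups. The Hoxb6 mean was thus 0.495 of WT in untreated cells and 0.367 with PDGF-BB. Hoxb7 held 8.13, 8.15 and 7.51 CPM in WT untreated, 8.81, 6.05 and 6.25 in WT with PDGF-BB, 2.81, 4.15 and 2.84 in labelled knockout untreated and 4.42, 3.45 and 2.12 in labelled knockout with PDGF-BB. Its ratios were 0.412 and 0.474, with no overlap between labels. Hoxb8 held 7.69, 7.64 and 9.77 CPM in WT untreated, 8.38, 5.32 and 6.19 in WT with PDGF-BB, 2.94, 2.67 and 3.11 in labelled knockout untreated and 2.26, 2.38 and 2.50 in labelled knockout with PDGF-BB. At 0.348 of WT in untreated cells it had the lowest ratio among the members of at least 5 CPM in WT untreated cells.

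Other central Hoxa genes differed among themselves. Hoxa7 was lower in the labelled knockout in both treatments (log2 -0.76 ± 0.10 and -0.66 ± 0.10), and its libraries are given with the PDGF-BB response. Hoxa4 held 6.55, 5.70 and 4.41 CPM in WT untreated and 5.10, 5.62 and 5.23 in labelled knockout untreated libraries, which overlap. With PDGF-BB it held 8.32, 7.91 and 7.60 in WT and 4.75, 4.72 and 4.19 in labelled knockout libraries, and only there was it called (-0.69 ± 0.12, adjusted p = 0.000857). The test of the difference between the contrasts is the interaction given with the PDGF-BB response. Hoxa6 overlapped between labels in both treatments (0.03 ± 0.20 and 0.01 ± 0.20). The Hoxd genes of this class were Hoxd8, at 6.55, 8.10 and 7.86 CPM in WT untreated, 10.6, 7.24 and 7.97 in WT with PDGF-BB, 5.23, 5.08 and 5.17 in labelled knockout untreated and 4.47, 4.09 and 4.31 in labelled knockout with PDGF-BB, and Hoxd4, called for no difference between labels. Hoxd8 was lower in both treatments (-0.46 ± 0.13 and -0.85 ± 0.13), and its untreated call was lost in 7 of 26 alternative analyses, with an adjusted p of 0.0792 at the highest.

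Posterior members pattern the lower trunk, the limbs and the urogenital tract, and here 2 genes had the opposite direction. Both stayed below 1 CPM in all 6 WT libraries and passed the filter only through the labelled knockout, so their calls are no independent count of higher members. Hoxa9 held 0.567, 0.458 and 0.834 CPM in WT untreated, 0.425, 0.0665 and 0.490 in WT with PDGF-BB, 2.68, 2.01 and 2.00 in labelled knockout untreated and 1.66, 2.19 and 1.81 in labelled knockout with PDGF-BB. Hoxa10 held 0.126, 0.458 and 0.238 CPM in WT untreated, 0.243, 0.465 and 0.368 in WT with PDGF-BB, 1.90, 1.60 and 1.84 in labelled knockout untreated and 0.968, 1.41 and 1.25 in labelled knockout with PDGF-BB. Every labelled knockout library was above every WT library for both genes. The mean of Hoxa9 was 3.60 times that of WT in untreated cells and 5.76 times with PDGF-BB, and that of Hoxa10 6.49 and 3.37 times. On the log2(CPM + 1) scale, which understates the change of genes with few reads, the differences were 1.00 ± 0.16 and 1.13 ± 0.16 for Hoxa9 and 1.13 ± 0.14 and 0.70 ± 0.14 for Hoxa10 (adjusted p = 0.000344, 0.000127, 3.95e-05 and 0.00187). Both are genes of few reads, at most 45 in any library for Hoxa9 and 33 for Hoxa10, and both kept the direction and the call in every alternative that tested them (25 of 25 for Hoxa9 in each contrast, and 25 of 25 and 24 of 24 for Hoxa10). With no filter on low values the adjusted p was 0.00150 and 0.000658 for Hoxa9 and 9.47e-05 and 0.00336 for Hoxa10.

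The other posterior genes that passed the filter were Hoxb9 and Hoxd9, and their difference from Hoxa9 and Hoxa10 was not tested. Hoxb9 held 1.197 to 1.96 CPM in WT and 1.81 to 2.58 in labelled knockout libraries and was not called (0.27 ± 0.14 and 0.22 ± 0.14). Its sign was that of Hoxa9 and Hoxa10, and it was called untreated with quantile normalization (0.41, adjusted p = 0.0387) and with the exon length trend removed (0.43, adjusted p = 0.0324). With PDGF-BB it was called under array weights (0.29, adjusted p = 0.00522), a fit that called 2796 of all 14202 genes higher and 7469 lower. Hoxd9 held 1.33 to 2.31 CPM in WT and 0.267 to 1.61 in labelled knockout libraries, with log2 values of -0.59 ± 0.24 and -0.38 ± 0.24, not called. The untreated value was called in 5 of 25 alternatives, one of them without the WT library that stood apart (adjusted p = 0.0289) and one without labelled knockout untreated replicate 1 (-0.76, adjusted p = 0.0396). The highest Hoxa paralog at 1 CPM or more was 7 in all 6 WT libraries, 10 in 5 labelled knockout libraries and 9 in the remaining one. That restates the filter, since Hoxa9 and Hoxa10 reached 1 CPM in labelled knockout libraries only. In Hoxb the highest paralog was 9 in all 12 libraries. In Hoxd it went the other way, from 9 in all 6 WT libraries to 8 in 3 of the 6 labelled knockout libraries, with 9 in the other 3.

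**Figure D2:**
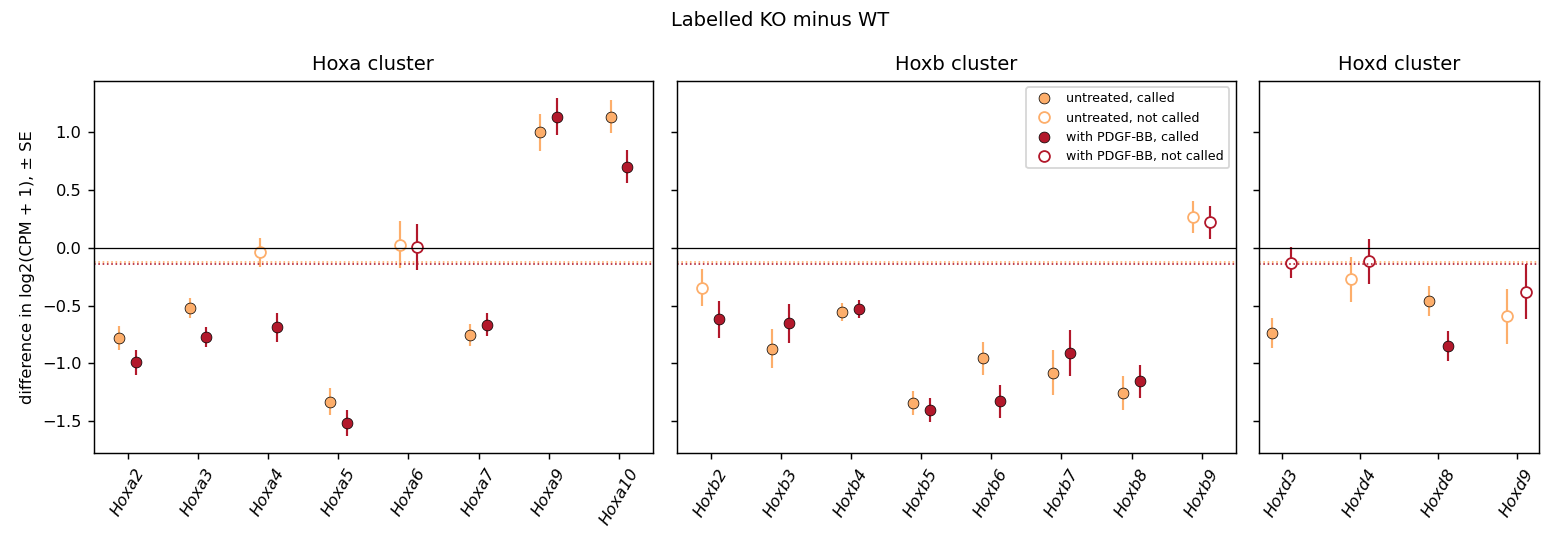
Labelled knockout minus WT in log2(CPM + 1), with SE, for 20 of the tested members in order of paralog number, untreated and with PDGF-BB, where filled points passed the adjusted p threshold of 0.05 and dotted lines mark the all-gene medians of -0.13 and -0.14. Paralogs 2 to 8 lie mostly below the dotted lines, from -0.46 to -1.52 where called, and Hoxa9 and Hoxa10 lie above 0 in both treatments.

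Summed over each library, the members gave 121 to 127 CPM per kb in WT untreated, 111 to 124 in WT with PDGF-BB, 71.0 to 77.8 in labelled knockout untreated and 57.1 to 62.5 in labelled knockout with PDGF-BB. These sums describe the members and were not tested. By cluster, in CPM, the labelled knockout to WT ratio in untreated cells was 0.600 for Hoxa, 0.538 for Hoxb and 0.637 for Hoxd, and with PDGF-BB 0.504, 0.519 and 0.566. By class it was 0.628 for anterior, 0.517 for central and 1.68 for posterior members in untreated cells, and 0.591, 0.444 and 1.57 with PDGF-BB. The posterior class includes Hoxa9 and Hoxa10, which passed the filter only through the labelled knockout. In untreated cells these stood at 0.914 and 0.191 CPM per kb in WT and 3.29 and 1.24 in the labelled knockout. Hoxb9 and Hoxd9, neither of them called, stood at 0.615 and 0.899 in WT and 0.814 and 0.475 in the labelled knockout. The posterior ratio is thus no shift of all members of the class. The posterior ratio depended on the length scale: per kb it was 2.26 and 2.25, and with GENCODE M21 lengths 1.39 and 1.30. On the GENCODE scale the libraries overlapped, at 1.52 to 1.97 CPM per kb in WT untreated and 1.80 to 2.84 in labelled knockout untreated, and at 1.47 to 1.97 and 1.84 to 2.51 with PDGF-BB. A share also rises when the other classes fall. As shares of the sum per kb, posterior members made up 1.90% to 2.49% in WT untreated and 1.56% to 2.30% in WT with PDGF-BB, against 7.08% to 9.07% and 8.18% to 9.28% in the labelled knockout groups. Central members made up 69.0% to 70.4% of the sum in WT untreated and 60.6% to 62.8% in labelled knockout untreated libraries, and anterior members took 27.5% to 28.7% and 30.1% to 30.4%.

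The average position depended on the length scale. The mean paralog number weighted by CPM per kb was 4.73 ± 0.04 (SD, n = 3) in WT untreated and 4.84 ± 0.02 in labelled knockout untreated libraries, which do not overlap. With PDGF-BB it was 4.63 ± 0.13 and 4.73 ± 0.09, which do. With GENCODE M21 exon lengths the order in untreated cells turned around (4.81 ± 0.04 in WT and 4.75 ± 0.02 in the labelled knockout), and in CPM without division by length the means were 4.57 ± 0.04 and 4.54 ± 0.02. With Hoxa9 and Hoxa10 included, the posterior share was higher in the labelled knockout on all 3 scales. With GENCODE lengths it was 1.62% in WT and 4.04% in labelled knockout untreated libraries, and in CPM 1.66% and 4.87%. The order of the mean paralog numbers thus changed with the scale, and that of the posterior share did not, although the posterior sum itself overlapped between labels on the GENCODE scale. No Hoxb or Hoxd gene above paralog 9 reached 1 CPM in any library of either label. Because the vessel and the animals behind each library are not given, the genotype and the origin of the cultures cannot be told apart.

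**Figure D3:**
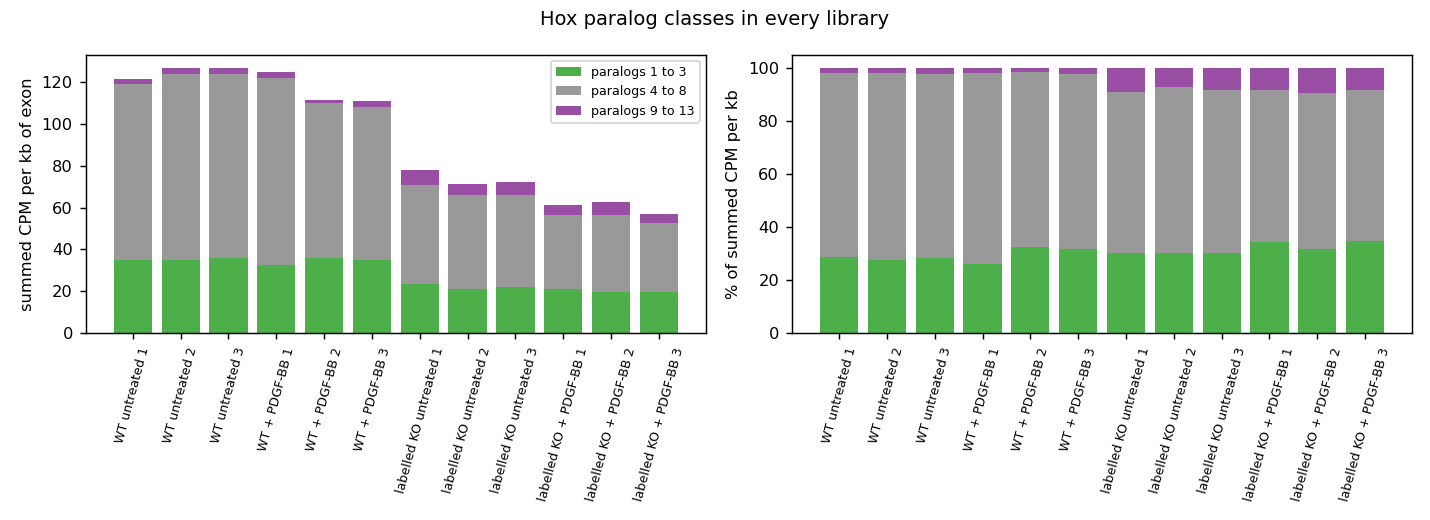
Summed CPM per kb of exon of the anterior (1 to 3), central (4 to 8) and posterior (9 to 13) paralogs in each of the 12 libraries, and the same as a percent of the sum. The sum is 121 to 127 in WT untreated and 71.0 to 77.8 in labelled knockout untreated libraries. The posterior share, which includes Hoxa9 and Hoxa10, is at most 2.49% in WT and at least 7.08% in labelled knockout libraries.

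Markers of some other cell types differed between the labels, while fibroblast markers moved in both directions. Their counts stand beside 24.8% of all genes lower and 9.15% higher untreated, and 26.6% and 10.6% with PDGF-BB. Endothelial markers summed to 105 to 111 CPM in WT untreated and 88.7 to 91.6 in WT with PDGF-BB, against 694 to 792 and 655 to 675 in the labelled knockout groups, and 9 of 9 tested were higher (median log2 2.64 and 2.63), with none of the 10 at 0 in any group. Macrophage markers summed to 149 to 163 and 114 to 169 CPM in WT and 35.7 to 44.2 and 35.4 to 39.2 in labelled knockout libraries, with 10 of 10 lower in untreated cells and 9 of 10 with PDGF-BB, and none at 0. Schwann cell markers summed to 49.9 to 57.2 and 37.7 to 59.2 CPM in WT and 17.9 to 20.3 and 13.9 to 15.1 in labelled knockout libraries, with 4 of 4 tested lower in untreated cells and 2 with PDGF-BB, and with Sox10 at 0 in all groups. Of the epithelial markers only Krt18 passed the filter, and the sum was 2.39 to 3.93 and 2.64 to 4.01 CPM in WT and 16.03 to 19.4 and 14.8 to 17.2 in labelled knockout libraries, with Epcam, Krt5 and Krt8 at 0 in both WT groups and Krt14 at 0 in both labelled knockout groups. Fibroblast markers summed to 2076 to 2199 and 1908 to 2101 CPM in WT and 2206 to 2382 and 1809 to 1858 in labelled knockout libraries, with 2 of 9 higher and 2 lower in untreated cells and 2 higher and 3 lower with PDGF-BB. The part of these cell types in the Hox differences was not tested. In bulk RNA, fewer cells of a type and less RNA per cell cannot be told apart.

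The second comparison was the response to PDGF-BB. In WT cells 7 members fell and 2 rose, against 34.4% and 25% of all genes, and in labelled knockout cells 6 fell and none rose, against 24.8% and 17.6%. The members' median changes were -0.11 and -0.21 on the log2 scale, beside all-gene medians of -0.08 and -0.07. Counts near these backgrounds are no result about the members, but single genes stood out. With quantile normalization the 9 calls in WT split into 6 higher and 3 lower in place of 2 and 7. In labelled knockout cells 3 of the 6 calls remained with TMM scaling, Hoxa6, Hoxa7 and Hoxb4. The 2 contrasts within one label share no library with those of the other label.

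Hoxa7, a gene of the thoracic level, fell most. It held 14.0, 12.5 and 13.3 CPM in WT untreated and 5.22, 5.58 and 5.82 in WT with PDGF-BB, and 7.85, 7.56 and 6.95 in labelled knockout untreated and 3.09, 3.16 and 3.12 in labelled knockout with PDGF-BB. Treated and untreated libraries did not overlap in either label, and the mean dropped to 0.418 of untreated in WT and 0.419 in the labelled knockout (log2 -1.12 ± 0.10 and -1.03 ± 0.10, adjusted p = 5.43e-07 and 2.77e-06). Within Hoxa7, 20.4% of exon bases lie opposite Hoxaas3, whose own log2 change in WT was -0.49. Its neighbour Hoxa6 held 1.95, 2.70 and 2.09 CPM in WT untreated and 0.547, 0.864 and 1.72 in WT with PDGF-BB, and 2.29, 2.47 and 2.11 in labelled knockout untreated and 0.876, 1.51 and 0.687 in labelled knockout with PDGF-BB. The fall was called in both labels (-0.70 ± 0.20 and -0.72 ± 0.20). Hoxb4, a gene of the neck that also supports blood stem cells, was called lower in both (-0.50 ± 0.08 and -0.48 ± 0.08), with the library values given above.

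The other calls were smaller. Hoxb5 was called lower in both labels (-0.26 ± 0.10 and -0.32 ± 0.10), and the WT call was lost in 19 of 26 alternatives and the labelled knockout call in 6 of 26. Hoxb3 fell in WT (-0.55 ± 0.17). Its value without the library that stood apart was -0.29, still called, and the call was lost with only the compared groups in the fit (adjusted p = 0.0570). Hoxd3 (-0.59 ± 0.13) and Hoxd4 (-0.63 ± 0.19) were called lower in WT. Hoxd3 had passed the filter only through WT untreated cells, and the Hoxd4 call was lost in 3 of 25 alternatives: with quantile normalization (adjusted p = 0.146) and without WT untreated replicate 1 (0.0510) or replicate 3 (0.0556). Hoxd4 held 2.58, 1.68 and 2.68 CPM in WT untreated and 0.850, 1.46 and 1.10 in WT with PDGF-BB, and 2.36, 1.34 and 1.56 against 0.599, 0.973 and 1.37 in the labelled knockout, where the groups overlap. Hoxd3 and Hoxd4 share exons, and how reads in shared exons were counted is not given. In the labelled knockout Hoxa2 (-0.32 ± 0.11) and Hoxb6 (-0.41 ± 0.14) were called lower, and each call was lost in 9 of 26 alternatives. The 2 rises in WT were Hoxa3 (0.24 ± 0.09, lost in 5 of 26) and Hoxa4 (0.46 ± 0.12, called in 26 of 26). Hoxa5, Hoxa9 and Hoxa10 were called for PDGF-BB in neither label. Leaving out the WT library that stood apart added 3 calls: Hoxb8 in WT (-0.47, adjusted p = 0.00704, against -0.31 with it), and, through the shared estimate of spread, Hoxb3 (-0.33, adjusted p = 0.00183) and Hoxd4 (-0.47, adjusted p = 0.0354) in the labelled knockout.

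The difference between the 2 responses, the interaction, was called for 0 of the 21 members by limma, against 3.92% of all genes. On the recovered reads edgeR called 0 and DESeq2 1 after adjustment. At an unadjusted p under 0.05 limma gave 3 members (Hoxa4, Hoxd3 and Hoxa10). The share of all genes at that threshold is not given here, so this count is no result about the members. Of the 3, Hoxd3 and Hoxa10 had passed the filter through 1 label only. Closest to the threshold of adjusted p was Hoxa4 (-0.65 ± 0.18, adjusted p = 0.0579), which rose in WT and did not in the labelled knockout, and then Hoxd3 (0.61 ± 0.18, adjusted p = 0.0875). Hoxa4 was called without WT with PDGF-BB replicate 1 (-0.62, adjusted p = 0.041) and without WT untreated replicate 1 (-0.76, adjusted p = 0.044). Over the alternatives the adjusted p of Hoxa4 ran from 0.00102 to 0.149. Such values leave the responses neither shown to differ nor shown to be alike.

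**Figure D4:**
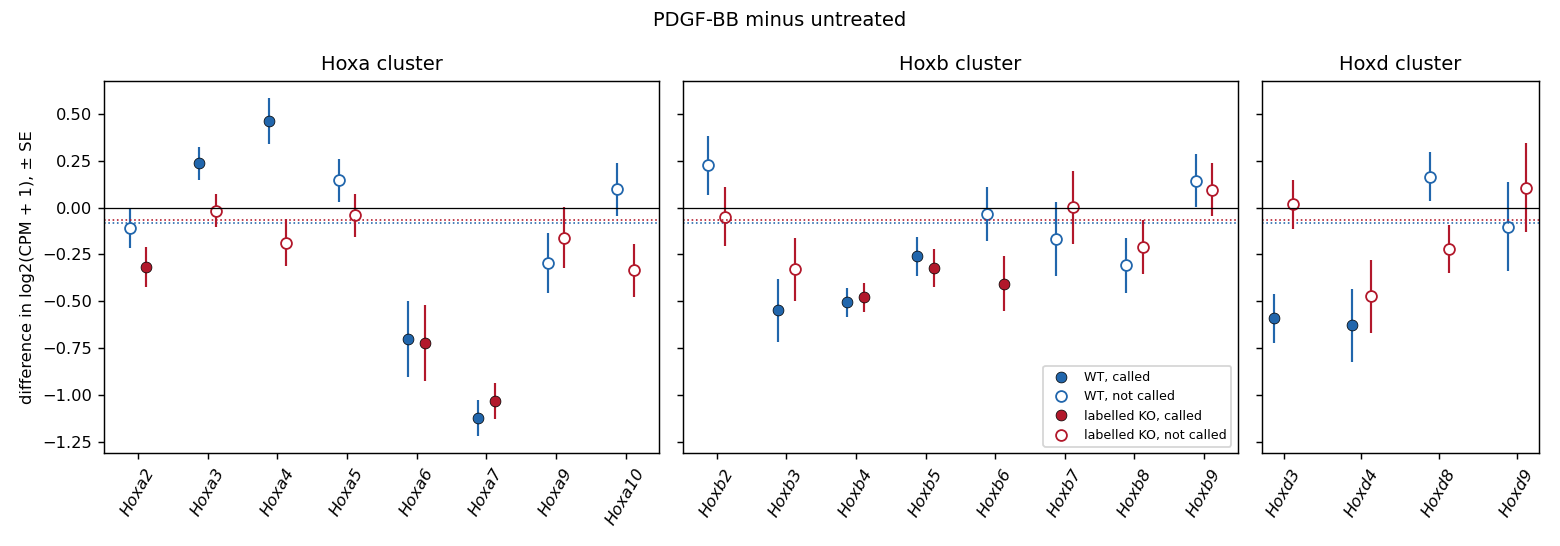
PDGF-BB minus untreated in log2(CPM + 1), with SE, for 20 of the tested members in WT and labelled knockout cells, where filled points passed the adjusted p threshold of 0.05 and dotted lines mark the all-gene medians of -0.08 and -0.07. Hoxa7 lies lowest in both labels (-1.12 and -1.03), and Hoxa4 lies above 0 in WT (0.46) and below it in the labelled knockout (-0.19).

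Noncoding transcripts in or near the clusters were picked by symbol, which gave 16, of which 5 passed the filter. In untreated cells 4 were lower in the labelled knockout and none higher, against 24.8% and 9.15% of all genes. These were Hoxb5os (-1.39), Hoxb3os (-0.75), Hoxaas3 (-0.68) and Hoxaas2 (-0.64). Hotairm1 was not called (-0.23). With PDGF-BB in WT 4 of the 5 were called lower, against 34.4% of all genes, Hoxaas2 the most (-0.92). Of these the Hoxaas3 call (-0.49, limma adjusted p = 0.0404) was kept in 9 of 25 alternatives, with an adjusted p of up to 0.381. Because these transcripts overlap or face the coding genes and the strand setting of the counting is not given, their values are not independent of those of the members.

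Genes that act with or on the Hox genes were read from lists, whose counts stand beside 24.8% lower and 9.15% higher over all genes untreated and 26.6% and 10.6% with PDGF-BB. Of 10 tested TALE cofactors, 8 were lower in the labelled knockout untreated and none higher (median -0.30), among them Pbx4 (-1.07 ± 0.18), Meis2 (-0.53 ± 0.08) and Pbx3 (-0.42 ± 0.11). With PDGF-BB 6 were lower and 1 higher, with Meis2 at -0.89 ± 0.08. Of 30 Polycomb genes 11 were lower and 1 higher in untreated cells (median -0.19), with Cbx7, a reader of the H3K27 mark, at -0.99 ± 0.19 and Pcgf5 at 0.67 ± 0.07. With PDGF-BB 17 of the 30 fell in WT and 16 in the labelled knockout, Cbx7 the most (-2.18 ± 0.19 and -1.495 ± 0.19), and 3 and 2 rose. Over all genes 34.4% fell in WT and 24.8% in the labelled knockout, and 25% and 17.6% rose. Of 15 Trithorax and H3K27 demethylase genes 1 was lower in untreated cells (Psip1, -0.26 ± 0.08). Of 8 tested direct regulators of Hox genes 2 were lower and none higher, among them Gdf11 (-0.31 ± 0.10), which opens the posterior genes.

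Retinoic acid genes moved in both directions. In untreated cells 3 of 12 tested were higher in the labelled knockout, among them the synthesizing enzyme Aldh1a2 (1.06 ± 0.11), and 6 were lower, among them Aldh1a1 (-1.06 ± 0.13) and Dhrs3 (-1.14 ± 0.11), which turns retinal back to retinol. Cyp26b1, the enzyme that degrades retinoic acid, held 812, 835 and 817 CPM in WT untreated and 109, 129 and 128 in WT with PDGF-BB, and 625, 673 and 641 against 206, 223 and 201 in the labelled knockout. It fell in both labels (-2.74 ± 0.07 and -1.62 ± 0.07), less in the labelled knockout (interaction 1.13 ± 0.10, adjusted p = 0.000154). Matches to the retinoid receptor motif AGGTCA lay upstream of the RefSeq start in 6 of the 22 Hox genes with an entry (27.3%), against 14.0% of all upstream stretches. This difference was not tested. Among the 6, the RefSeq starts of Hoxc4 and Hoxd4 lie 15461 and 10049 bases from the deposited gene start. Of the 13 with an entry that passed the filter, 4 held a match, and binding was not tested.

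Other genes of regional identity differed between the labels, in both directions. Of 13 tested genes of the neural crest and arches 8 were higher in the labelled knockout untreated and 1 lower (median 1.10), with Tbx1 (2.16 ± 0.15), Dlx6 (1.81 ± 0.22) and Isl1 (1.80 ± 0.16) higher and Tfap2b (-1.61 ± 0.10) lower. With PDGF-BB 7 were higher and 2 lower (median 0.41). Of 10 lateral plate, splanchnic and mesothelial genes 6 were higher and 3 lower, with Barx1, a gene of the stomach mesenchyme, at 1.86 ± 0.15 and Foxf2 at 1.44 ± 0.17. With PDGF-BB 3 were higher and 3 lower, and the median was -0.07 against 0.40 untreated. Of 11 limb and regional genes 8 were higher and 1 lower: Shox2 (1.82 ± 0.14) and Irx1 (1.60 ± 0.14) were among those higher and Six2 (-1.44 ± 0.10) was the lower, while with PDGF-BB 5 were higher and 1 lower. Somite genes gave 1 higher, Pax9 (1.91 ± 0.11), and 2 lower of 6, Nkx3-2 (-1.36 ± 0.14) and Foxc1 (-0.46 ± 0.07), and with PDGF-BB 2 higher and 2 lower. Second heart field genes gave 2 higher and 1 lower of 8 untreated, and 3 and 1 with PDGF-BB, with Isl1 and Foxc1 shared with the lists above.

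**Figure D5:**
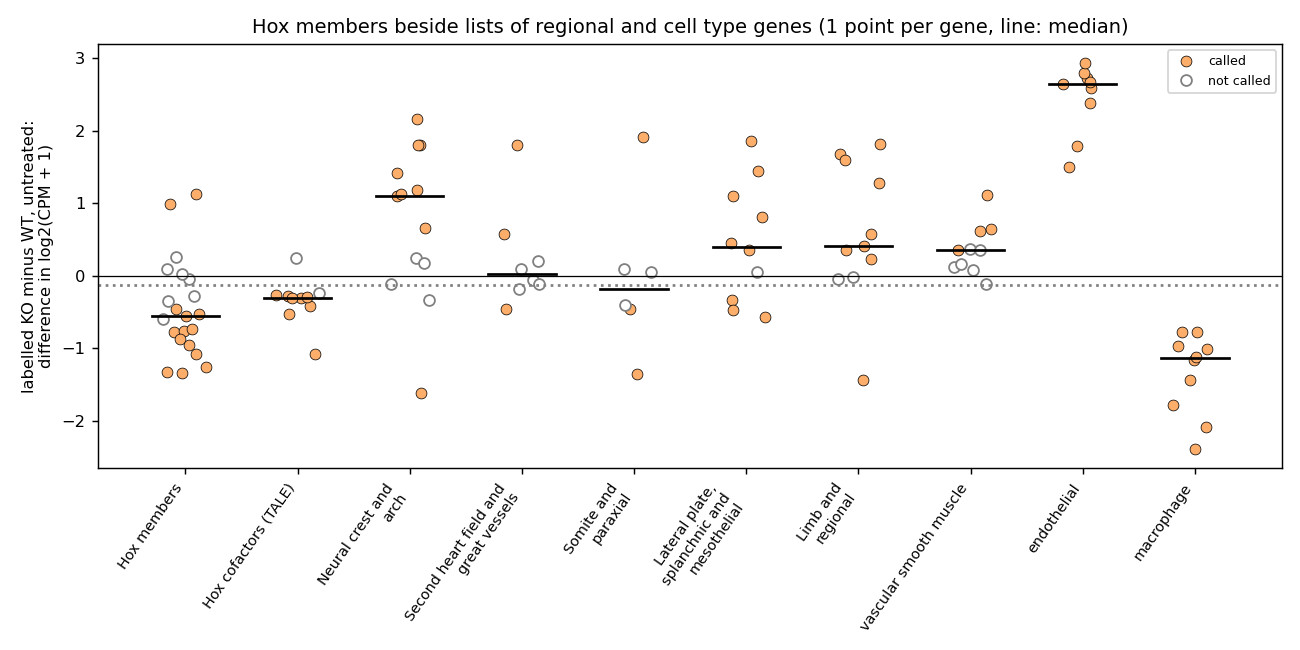
Labelled knockout minus WT in untreated cells, in log2(CPM + 1), 1 point per tested gene, for the 21 Hox members and for lists of cofactors, regional genes and cell type markers, with the median of each list as a line and the all-gene median of -0.13 dotted. Endothelial markers sit above 0 (median 2.64), macrophage markers below it (median -1.14), and the Hox members at a median of -0.56 with Hoxa9 and Hoxa10 above 0.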

How the data were processed

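RNA was measured in 12 libraries, 3 in each of 4 groups. The submitters' processing notes name HISAT2, HTSeq and mm10, and the header of the table names GRCm38.p6; versions and the strand setting are not given in the sources used here. The deposited values, in a table named for FPKM, are CPM made by the authors: library sums are 1000000, and multiplying by the library total gave whole reads (tolerance 0.001) for 100% of values. The deposited exon length is another column of that table and was used only to express levels per kb.

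Genes with CPM of at least 1 in at least 3 libraries were kept, 14202 of 55487. The test was limma-trend (limma 3.58.1, R 4.3.3), fitted to log2(CPM + 1) of the 12 libraries together with a mean for each group, 2-sided, Benjamini-Hochberg adjusted over the genes kept, and called at an adjusted p under 0.05. Contrasts were labelled knockout minus WT in each treatment, PDGF-BB minus untreated in each label, and their interaction. Errors beside log2 values are SE, and those beside means are SD. Sums, shares and mean paralog numbers over the members carry no test. The fit was tested on simulated data. Promoter sequences are from RefSeq (GRCm38.p6), and exon overlaps from GENCODE M21, whose positions matched the table for all 39 members.

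The members and all gene lists were chosen with earlier results of these data known. Values in every library are given for members called in a pairwise contrast, up to 16 by largest change (18 were called), and for the 3 highest per kb; other genes are named from lists, at most 4 called genes per list and contrast. Lists were TALE cofactors, Polycomb, Trithorax, direct regulators, retinoic acid, neural crest and arch, second heart field, somite, lateral plate, limb and regional, and noncoding transcripts, with markers of smooth muscle, endothelium, fibroblasts, macrophages, Schwann cells, adipocytes, epithelium, mesothelium, striated muscle and lymphocytes. Alternatives were other pseudocounts, filters, scalings and fits, edgeR 4.0.16 and DESeq2 1.42.0 on the recovered reads, an exon length correction, a replicate block and leaving out each library. The values of 1 member and of some list genes are not reported here, but they are included in the counts, sums and medians.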

Additional observations from a re-analysis of the deposited data

How the results depend on the processing

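No member changed direction while called in any alternative. Over up to 26 alternatives each, 2533 of the member results kept their side of the threshold, 64 were lost and 44 gained. Of 14 members called between labels in untreated cells, 12 to 15 were called when 1 library was left out, and 15 to 15 of the 15 called with PDGF-BB. For PDGF-BB in WT, 9 members were called, and 6 to 10 with 1 library left out. Array weights gave 16 (4 higher and 12 lower, with incomplete convergence of the weights). That fit called 4870 of all 14202 genes higher and 6525 lower, so its count is no result about the members. For PDGF-BB in the labelled knockout, 6 were called, 3 with TMM scaling, 3 with quantile normalization and 3 to 8 with 1 library left out, the lowest without labelled knockout with PDGF-BB replicate 2 or replicate 3. The interaction gave 0, but 2 without the trend (Hoxa4 and Hoxd3), 1 with DESeq2 (Hoxa4) and 0 to 1 with 1 library left out. Array weights gave 6, beside 2579 of all 14202 genes called with a positive sign and 2141 with a negative one. The cause of these changes was not tested. Mean paralog numbers and posterior shares moved by more than 1 SD in 6 of 24 alternatives each, all on another length scale.

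Replicate numbers 1 to 3 recur in all groups, but the deviations of same-numbered libraries of one label correlated at -0.23 to 0.15 (1 of 6 over 0.1), so the numbers were not read as pairs. With the replicate block 15 and 15 members were called between labels, 8 and 6 for PDGF-BB in WT and in the labelled knockout, and 0 for the interaction. It added the call of Hoxd9 between labels in untreated cells (adjusted p = 0.0414), dropped that of Hoxb5 for PDGF-BB in WT (adjusted p = 0.0666) and changed no other member's call. Genes of few reads limit the posterior members: Hoxa9 and Hoxa10 rest on 1 to 45 reads per library, and the 18 members under 1 CPM could not be compared.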

Other observations

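Adipocyte markers summed to 16.3 to 18.4 CPM in WT untreated and 17.1 to 20.0 in labelled knockout untreated libraries, and mesothelial markers to 8.63 to 11.1 and 5.23 to 6.95 CPM, with Wt1 at 0 in all groups. Striated muscle markers summed to at most 4.13 CPM and lymphocyte markers to at most 1.00 CPM in any library. Of 10 lateral plate, splanchnic and mesothelial genes, 4 were called in the interaction, against 3.92% of all genes. All 4 had a negative sign: Osr2 (-1.11 ± 0.19), Osr1 (-0.89 ± 0.12), Prrx1 (-0.65 ± 0.15) and Prrx2 (-0.59 ± 0.13). The list is named here because it had the most such calls, and smooth muscle markers came next with 2, both positive.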
